A study of Homo sapiens with 12 samples.

Results

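The BCL2 family genes described here are 10 genes that were taken by name from the 22379 genes of the expression table: 4 pro-survival genes (MCL1, BCL2, BCL2L1 and BCL2L2), 4 pro-death genes of the BH3-only class (BCL2L11, BBC3, PMAIP1 and BID) and 2 pro-death effectors (BAX and BAK1). All 10 averaged 10 or more in untreated cells, and so belonged to the 13811 genes that were tested. The study sequenced polyadenylated RNA of U2OS, a line grown from a human osteosarcoma, in 12 libraries. The cells had received a plasmid for Cas9 with a nontargeting guide (NONT), a guide against NUP93, a protein of the nuclear pore, or a guide against EXOSC5, a core subunit of the RNA exosome. The knockouts (NUP93-KO and EXOSC5-KO) were pools of edited cells and not clones. Cells of all 3 genotypes either stayed untreated or received 1 µM triptolide for 8 h, which makes 6 groups of 2 replicates. Triptolide binds the XPB helicase of TFIIH and stops RNA polymerase II from starting transcription. The comparison made here is between the loss of pro-survival and of pro-death mRNA under the drug.

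Proteins of the BCL2 family decide whether the outer mitochondrial membrane stays intact. MCL1, BCL2, BCL-XL (the product of BCL2L1) and BCL-w (the product of BCL2L2) bind and hold their pro-death relatives. The BH3-only proteins BIM (BCL2L11), PUMA (BBC3), NOXA (PMAIP1) and BID relay stress signals by occupying the pro-survival proteins or by activating BAX and BAK (BAK1), which then form pores that release cytochrome c and start the caspase cascade. MCL1 is known as a protein with rapid turnover, whereas BAX and BAK are present in most healthy cells in an inactive form.

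Values are deposited per gene and scaled to ERCC spike-in RNAs that were added per cell, so that they are meant to follow mRNA per cell. In bulk libraries, fewer cells with a transcript and less of it in each cell cannot be told apart. Approximate depth was 8.6 to 11.96 M (mega) reads per library, and 1 read was worth 0.490 to 1.76 in these values. The NONT libraries stood apart in scale: on the log2 scale, replicate 1 minus replicate 2 had a median over genes of −0.51 without drug and 0.25 with triptolide, against −0.14 to 0.11 in the other groups. Results that rest on single NONT libraries are therefore given without them as well. Of 6 mesenchymal markers checked, VIM, SPARC, COL1A1 and CDH2 were high in every library, and COL1A2 was low, at 4.05 to 42.0. RUNX2 was at 218 to 404 in the untreated libraries and at 9.56 to 34.8 in the treated ones, and fell in every genotype. The epithelial markers EPCAM (16.8 to 47.6) and CDH1 (13.5 to 69.7) had low values in all libraries, and the other 5 of 7 markers, of blood and endothelium, were under 10 in both replicates of every group. In the untreated knockouts, NUP93 was at 1395 and 1432 in NUP93-KO (1753 and 2489 in NONT) and EXOSC5 at 216 and 148 in EXOSC5-KO (299 and 481 in NONT). Neither decrease passed in limma over all genes (adjusted p-values of 0.926 and 0.151).

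The members differ in a sequence feature that played no part in choosing them, the AU-rich pentamer ATTTA in the 3′ UTR, which is the core of elements known to recruit factors that speed the decay of mRNA. In the canonical transcripts of GENCODE 44 on GRCh38, on the mRNA strand, the 3′ UTR held 10 copies in MCL1, 13 in BCL2, 3 in BCL2L1, 5 in BCL2L2, 8 in BCL2L11, 5 in PMAIP1 and 2 in BID. BBC3, BAX and BAK1 held 0. Of 12934 tested genes with a 3′ UTR, 74.3% held at least 1 copy. The longer heptamer TTATTTA, which contains the pentamer, was found in MCL1, BCL2, BCL2L2, BCL2L11 and PMAIP1 and in 34.3% of tested 3′ UTRs. For 4 members, the 30-base window with the most heptamers, and among such windows the most pentamers, is printed below with ATTTA in capitals. These members were taken because they cover the pro-survival and the BH3-only class. As the values show, they also cover losses from among the deepest to near the median gene.
MCL1 (chr1:150575164-150575193, minus strand): tcataagccgcttATTTAtatcatgtatct
BCL2 (chr18:63128353-63128382, minus strand): gaaaaaaagATTTATTTATTTAagacagtc
BCL2L11 (chr2:111167091-111167120, plus strand): tgtatATTTAttttctgcttATTTAatgtc
PMAIP1 (chr18:59903967-59903996, plus strand): aattttATTTAttttgcctATTTAtaatta

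The MCL1 window lies 2182 bases past the stop codon, that of BCL2 243 bases, that of BCL2L11 2860 bases and that of PMAIP1 1214 bases. The BCL2 window is a run of 3 overlapping pentamers. The number of copies goes with UTR length. Among tested 3′ UTRs within 20% of the member's length, 22.2% held as many copies as MCL1 (2817 bases), 30.1% as many as PMAIP1 (1552 bases), 44.8% as many as BCL2 (5279 bases) and 60.4% as many as BCL2L11 (4213 bases). At the other end, the BAX 3′ UTR had 162 bases, and 22.6% of UTRs of that length held a copy. For BBC3 and BAK1, with 978 and 1251 bases, 75.6% and 81.3% of UTRs of like length held a copy. A match is a description of the sequence and not evidence of binding.

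After triptolide, mRNA of all 4 pro-survival genes was lower in each genotype, and MCL1 lost the largest part of the 4. The pro-death genes split. BBC3, BCL2L11 and BAK1 fell about as far as the pro-survival genes or further, PMAIP1 fell less, and BID and BAX changed least, with overlapping treated and untreated replicates in NUP93-KO. In limma, 10 of 10 members were lower in NONT, 8 in NUP93-KO (all but BID and BAX) and 9 in EXOSC5-KO (all but BID), and 0 were higher. The share of all tested genes called lower was 90.0%, 55.1% and 64.3% in these genotypes, so the count in NONT tells little about the members. In NONT and EXOSC5-KO, 10 members had no overlap between treated and untreated replicates, and 8 had none in NUP93-KO, against 94.8%, 88.0% and 79.1% of tested genes. These directions are those of the per-cell scale. MCL1, BCL2, BCL2L1, BCL2L11, BBC3 and BAK1 were also lower in every genotype under each other scaling tried, whereas BCL2L2, PMAIP1, BID and BAX were not, as given further on.

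**Figure D1:**
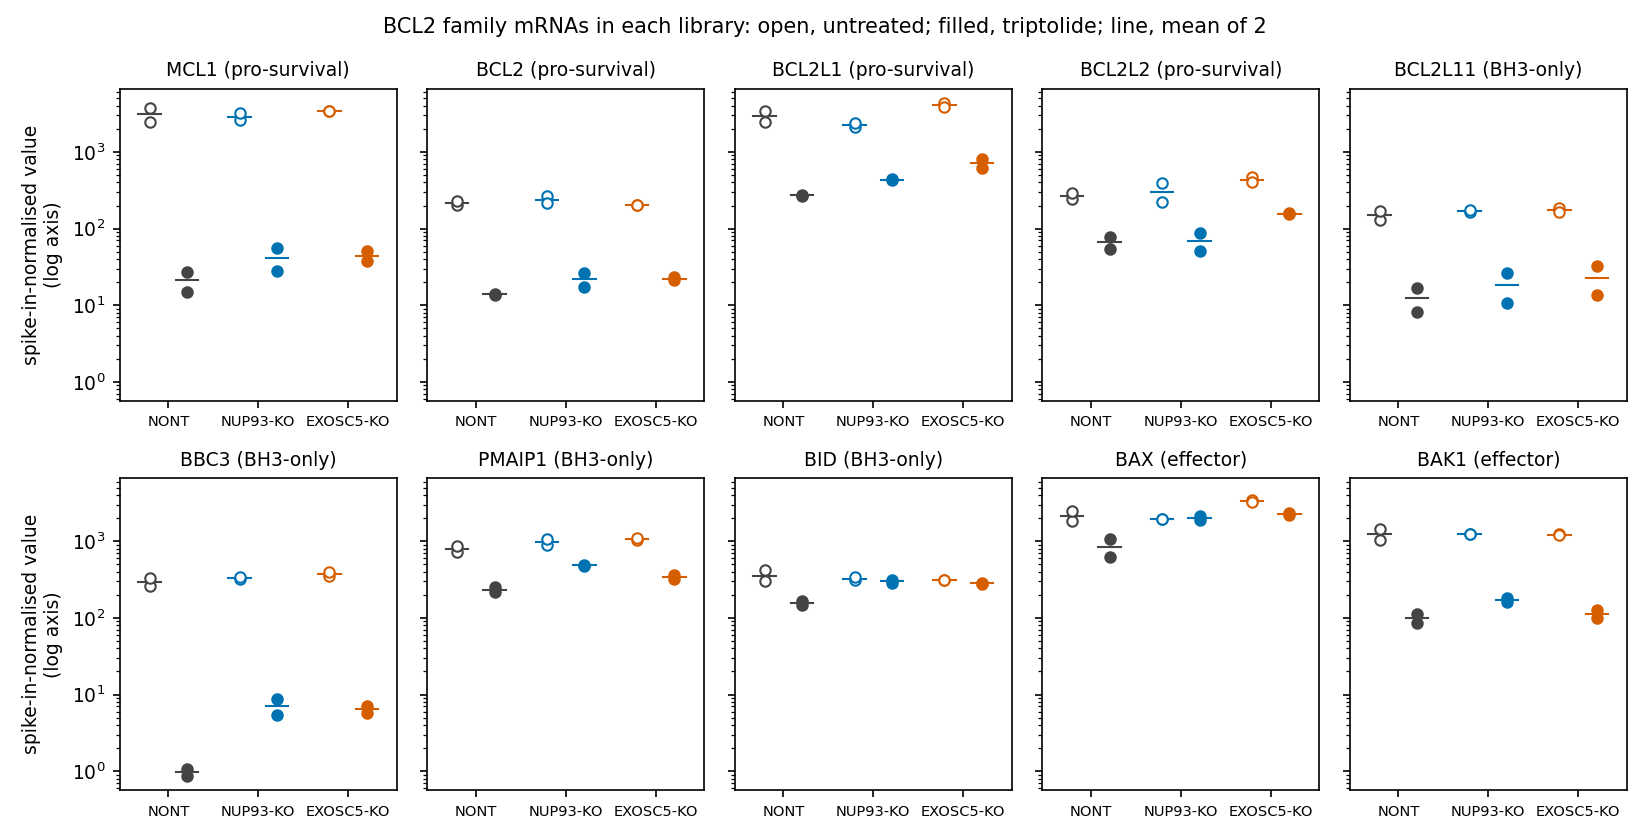
Spike-in-scaled value of each member in all 12 libraries, on a log axis, with untreated and triptolide replicates of NONT, NUP93-KO and EXOSC5-KO side by side. MCL1 drops from 2481 or more to 55.6 or less in every genotype, and BAX in NUP93-KO keeps 1903 and 2142 after triptolide against 1968 and 1965 without.

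MCL1, a pro-survival protein known for its rapid turnover, is encoded on chromosome 1 from 150560895 to 150579738 of GRCh38, on the minus strand, in 3 exons (ENSG00000143384). Its value in NONT was 2481 and 3709 without drug and 14.95 and 27.5 after triptolide. The NUP93-KO libraries held 2587 and 3209 untreated, then 55.6 and 27.7. Those of EXOSC5-KO held 3471 and 3431, then 50.9 and 37.4. The treated libraries lay far below the untreated ones in every genotype, with no overlap. Of the mean untreated value, 0.685%, 1.44% and 1.28% was left, and the log2 fold changes were −7.15, −6.16 and −6.27 (each ± 0.33, SE), with limma adjusted p-values of 5.39e-11, 1.30e-09 and 6.25e-10. MCL1 stood at percentile 0.402, 0.315 and 0.518 of all tested genes, counted from the deepest loss. The treated values rested on about 81, 92 and 99 reads over both replicates, so their counting error alone spans 0.596% to 0.936% of the untreated level in NONT (95% exact Clopper-Pearson interval, counting error only, for a ratio of 0.752% from summed reads).

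BCL2, the founding member of the family, lies on chromosome 18 from 63123346 to 63320128, minus strand, with 3 exons (ENSG00000171791). It was low without drug: NONT had 201 and 227, NUP93-KO had 266 and 213, and EXOSC5-KO had 201 and 203. Triptolide left 13.5 and 14.2, 17.3 and 26.7, and 21.3 and 23.0 in these genotypes. No treated library reached an untreated one. The log2 fold changes were −3.85, −3.41 and −3.14 (each ± 0.35, SE), and the limma adjusted p-values 3.95e-08, 4.06e-07 and 8.75e-07.

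BCL2L1, which encodes BCL-XL, lies on chromosome 20 from 31664452 to 31723989, minus strand, with 3 exons (ENSG00000171552). It was at 2471 and 3472 in untreated NONT, close to MCL1, and at 277 and 268 after triptolide. NUP93-KO had 2088 and 2386 before 427 and 439, and EXOSC5-KO had 4329 and 3811 before 626 and 799. All treated values were lower than all untreated ones, but a larger part of the transcript remained than for MCL1: 9.17%, 19.4% and 17.5%. The log2 fold changes were −3.42, −2.36 and −2.52 (each ± 0.20, SE), with limma adjusted p-values of 4.39e-10, 6.89e-08 and 2.91e-08.

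BCL2L2, which encodes BCL-w, lies on chromosome 14 from 23298790 to 23311751, plus strand, with 4 exons (ENSG00000129473). NONT had 247 and 292 without drug, then 78.3 and 54.8. NUP93-KO had 219 and 388, then 50.6 and 88.9, and EXOSC5-KO had 464 and 403, then 159 and 155. The groups did not overlap, although the untreated NUP93-KO replicates were far apart. Its loss was the smallest of the 4 pro-survival genes, with log2 fold changes of −2.02, −2.10 and −1.46 (each ± 0.33, SE) and limma adjusted p-values of 3.16e-05, 4.00e-05 and 0.00106. Its values are less certain than those of the other members because the readthrough gene BCL2L2-PABPN1, annotated over part of it on the same strand, ranged from 0 to 109 between libraries, and reads can be divided between both.

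Among the BH3-only genes, BBC3 (PUMA, a p53 target that binds all pro-survival members) lost the most. It lies on chromosome 19 from 47220822 to 47232766, minus strand, with 4 exons (ENSG00000105327). NONT libraries held 262 and 330.5 untreated and 1.08 and 0.865 with triptolide. NUP93-KO had 321 and 340.2, then 8.80 and 5.39, and EXOSC5-KO had 356 and 392, then 7.09 and 5.74. All treated values were near the worth of a few reads: about 4 reads remained over both NONT replicates, and 15 in each knockout. From summed reads, NONT kept 0.378% (95% exact Clopper-Pearson interval 0.103% to 0.974%), NUP93-KO 2.12% (1.18% to 3.52%) and EXOSC5-KO 1.76% (0.976% to 2.93%), counting error only. The log2 fold changes of −7.23, −5.39 and −5.66 (each ± 0.40, SE; limma adjusted p-values 2.26e-10, 1.75e-08 and 9.20e-09) depend on the pseudocount of 1 at such values.

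BCL2L11 (BIM, an activator of BAX and BAK) lies on chromosome 2 from 111119378 to 111168444, plus strand, with 4 exons (ENSG00000153094). It had the lowest untreated values of the members: NONT had 131 and 171, NUP93-KO had 167 and 175, and EXOSC5-KO had 184 and 165. After triptolide it was at 16.8 and 8.19, 10.6 and 26.0, and 13.5 and 32.4. The treated replicates of each genotype differed by about as much as the genotypes did. Its log2 fold changes of −3.56, −3.27 and −2.99 carried the largest error of the 10 genes (± 0.49, SE), and the limma adjusted p-values were 5.30e-06, 2.56e-05 and 5.66e-05.

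PMAIP1 (NOXA, which binds MCL1 preferentially) lies on chromosome 18 from 59899996 to 59904305, plus strand, with 2 exons (ENSG00000141682). NONT had 714 and 874 without drug and 252 and 215 with triptolide. NUP93-KO had 901 and 1066, then 479 and 491, and EXOSC5-KO had 1034 and 1116, then 322 and 364. Treated and untreated replicates did not overlap, and 29.4%, 49.3% and 31.9% was left. The log2 fold changes of −1.76, −1.01 and −1.65 (each ± 0.20, SE; limma adjusted p-values 6.50e-07, 0.000391 and 2.59e-06) were near or somewhat below the medians of all tested genes, −1.62, −0.92 and −1.08.

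BID, which is cut by caspase-8 and links death receptors to mitochondria, lies on chromosome 22 from 17734138 to 17774770, minus strand, with 6 exons (ENSG00000015475). NONT had 298 and 415 untreated, then 166 and 149, and the log2 fold change was −1.16 ± 0.23 (SE, limma adjusted p-value 0.0002). NUP93-KO had 312 and 338 without drug, then 316 and 289, and EXOSC5-KO had 310.2 and 311, then 279 and 284. The NUP93-KO replicates overlapped and the EXOSC5-KO replicates did not. With log2 fold changes of −0.10 and −0.14 (each ± 0.23, SE) it passed in neither knockout (limma adjusted p-values 0.727 and 0.587), where ±2 SE spans −0.56 to 0.35 and −0.60 to 0.32.

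The effectors BAX and BAK1, which share the work of forming the pore, diverged. BAX lies on chromosome 19 from 48954815 to 48961798, plus strand, with 6 exons (ENSG00000087088). NONT had 1815 and 2507 without drug and 1060.2 and 631 with triptolide, and the log2 fold change was −1.38 ± 0.23 (SE, limma adjusted p-value 3.29e-05). NUP93-KO had 1968 and 1965, then 1903 and 2142, which overlap. EXOSC5-KO had 3430.0 and 3225, then 2170.2 and 2368, with no overlap. The BAX log2 fold change was 0.04 ± 0.23 (SE) in NUP93-KO (limma adjusted p-value 0.90, ±2 SE from −0.41 to 0.49) and −0.55 ± 0.23 (SE) in EXOSC5-KO. The EXOSC5-KO call, at an adjusted p-value of 0.0415, did not hold without the filter on low values, without limma's trend or without any single NUP93-KO or EXOSC5-KO library (0.0520 to 0.170).

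BAK1 lies on chromosome 6 from 33572547 to 33580293, minus strand, with 6 exons (ENSG00000030110). NONT had 1035 and 1464 untreated, then 111 and 86.1. NUP93-KO had 1227 and 1256, then 183 and 160.3, and EXOSC5-KO had 1234 and 1188, then 126 and 98.8. Every treated library was far below every untreated one, and 7.90%, 13.8% and 9.30% was left. The BAK1 log2 fold changes of −3.64, −2.85 and −3.43 (each ± 0.23, SE; limma adjusted p-values 1.005e-09, 4.44e-08 and 6.15e-09) were close to those of BCL2L1 and BCL2 and unlike those of BAX.

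**Figure D2:**
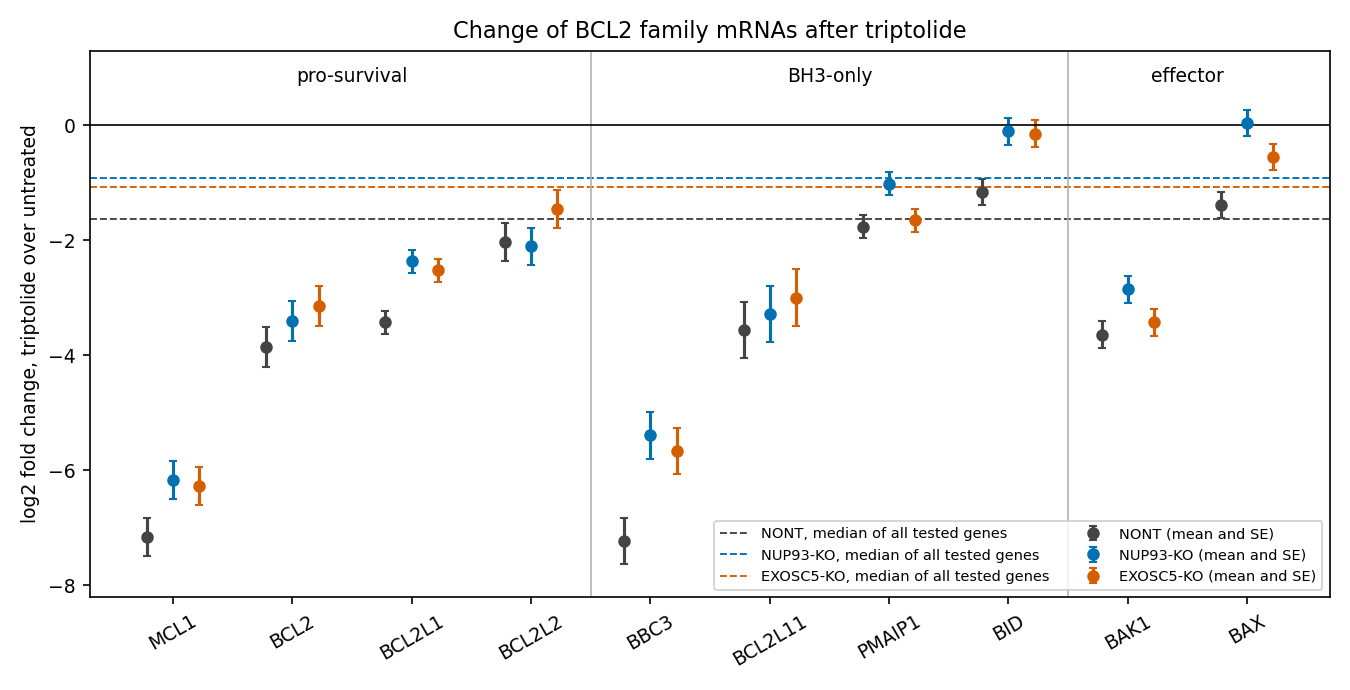
Log2 fold change of each member after triptolide on the spike-in scale, by genotype. Bars show the SE from limma in each direction, and a line for each genotype gives the median of all 13811 tested genes. MCL1 and BBC3 lie at −5.39 or lower in every genotype, and BID and BAX are the members that lie above the median gene in all 3.

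To contrast the classes, the median log2 fold change was taken over each, as a description with no test since the members were chosen. Pro-survival genes had medians of −3.64, −2.89 and −2.83 (NONT, NUP93-KO, EXOSC5-KO), ranging in NONT from −7.15 (MCL1) to −2.02 (BCL2L2). Pro-death genes had medians of −2.66, −1.93 and −2.32, ranging in NONT from −7.23 (BBC3) to −1.16 (BID). The difference of the medians was −0.98, −0.95 and −0.51, and over the 4 ways to set 1 treated against 1 untreated library it stayed below 0, at −1.28 to −0.75, −1.27 to −0.79 and −0.77 to −0.39. The ranges of the classes overlapped widely, and the median of 6 genes lay between genes that moved very differently. All 4 pro-survival genes and 4 of 6 pro-death genes (3 of 4 BH3-only genes and 1 of 2 effectors) lay below the median gene in each genotype. This difference does not depend on how the libraries are scaled, apart from the pseudocount, because a library's scale moves all members alike.

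A ratio of 2 members within a library is likewise free of the scale. The log2 ratio of MCL1 to BAX was 0.45 and 0.56 in untreated NONT and −6.15 and −4.52 after triptolide. NUP93-KO had 0.39 and 0.71 untreated, then −5.10 and −6.27, and EXOSC5-KO had 0.02 and 0.09, then −5.41 and −5.98. In every genotype the untreated ratios were above 0 and the treated ratios below −4, changes of −5.84, −6.24 and −5.75. The ratio of MCL1 to PMAIP1, its BH3-only partner, changed by −5.46, −5.18 and −4.65, and the ratio of MCL1 to BCL2L1 by −3.80, −3.83 and −3.78. Within the pro-survival class, MCL1 thus lost ground to BCL2L1 by a like amount in the 3 genotypes.

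The log2 ratio of BCL2L1 to BAX was 0.45 and 0.47 in untreated NONT, then −1.93 and −1.24. NUP93-KO had 0.09 and 0.28, then −2.15 and −2.29, and EXOSC5-KO had 0.34 and 0.24, then −1.79 and −1.57. It changed by −2.04, −2.40 and −1.97. The ratio of BCL2L1 to BAK1 moved the other way by a smaller amount: NONT had 1.26 and 1.25, then 1.32 and 1.64, NUP93-KO had 0.77 and 0.93, then 1.22 and 1.45, and EXOSC5-KO had 1.81 and 1.68, then 2.31 and 3.01. BCL2L1 mRNA thus lost ground to BAX mRNA but not to BAK1 mRNA. The ratio of MCL1 to BCL2L11 changed by −3.55, −2.84 and −3.25, and its treated replicates lay far apart (2.39 and 0.09 in NUP93-KO).

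**Figure D3:**
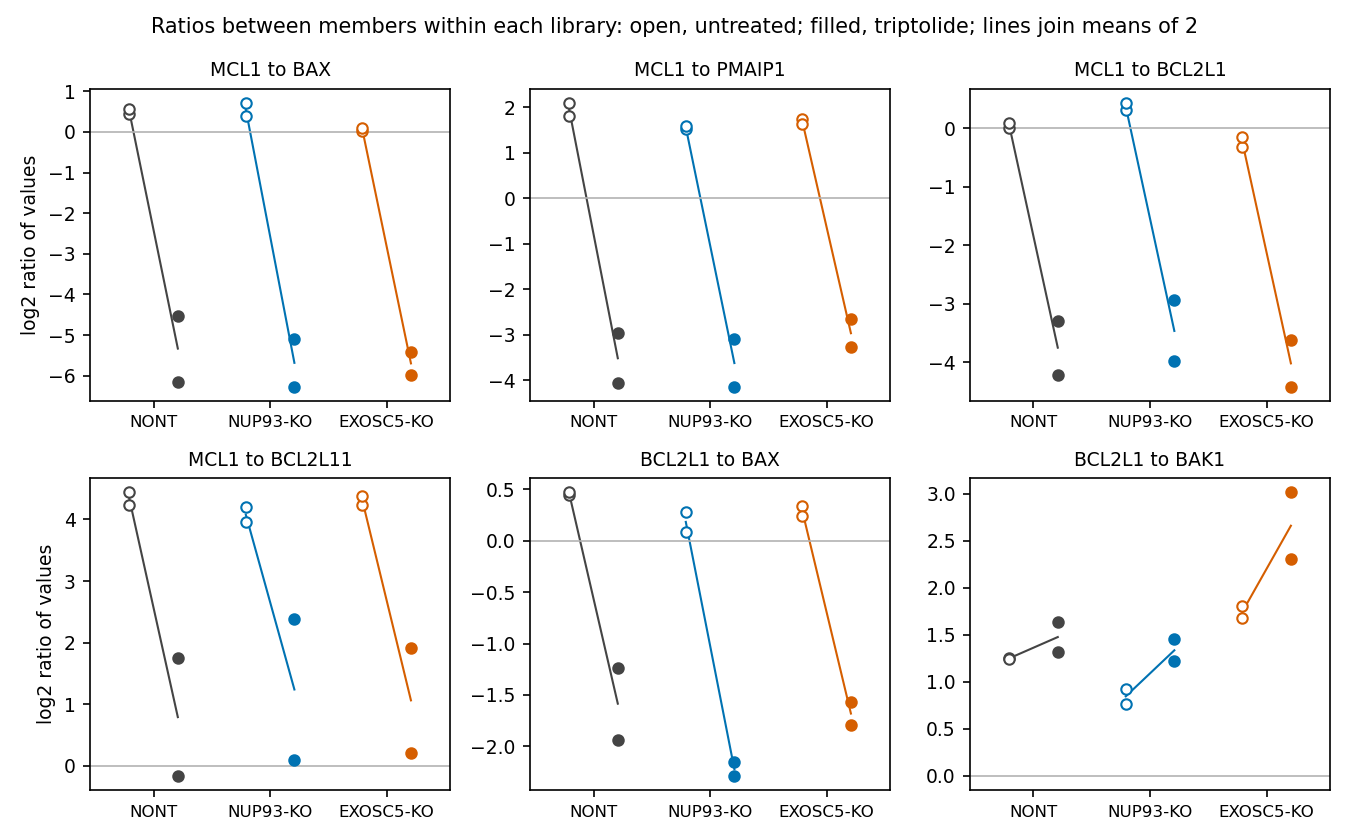
Log2 ratio of 6 pairs of members in each library, untreated and after triptolide, by genotype, which no scaling of a library can move. MCL1 to BAX falls from between 0.02 and 0.71 to −4.52 or lower, whereas BCL2L1 to BAK1 stays between 0.77 and 3.01 throughout.

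Levels were compared between genes per kilobase of the canonical transcript, which ignores other isoforms. Without drug, BAX had the highest level per kilobase of the 10 genes, 2283 and 3154 in NONT, followed by BCL2L1 at 960.1 and 1349 and MCL1 at 628 and 939. BAK1 (477 and 675) overlapped with MCL1, although it was lower within each library, and PMAIP1 (376 and 460.4) came next. BID (137 and 191) and BBC3 (142 and 179) overlapped. BCL2L2 was at 70.0 and 82.9, and BCL2 (29.2 and 33.0) and BCL2L11 (25.7 and 33.5) overlapped at the bottom. The second MCL1 replicate almost reached the first of BCL2L1, although MCL1 was lower within each NONT library. With 2 replicates and canonical transcripts only, the order of these genes is not firm.

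Of the summed level per kilobase of all 10 genes, the 4 pro-survival genes made up 32.9% and 33.9% in untreated NONT and 7.83% and 11.2% after triptolide. NUP93-KO had shares of 28.8% and 32.1%, then 6.40% and 6.12%, and EXOSC5-KO had 31.9% and 30.9%, then 8.96% and 9.86%. Treated and untreated shares did not overlap in any genotype. The mean share of BAX went from 44.5%, 43.8% and 50.4% (NONT, NUP93-KO, EXOSC5-KO) to 73.1%, 78.8% and 80.2%. That of MCL1 went from 12.7%, 12.95% and 10.5% to 0.413%, 0.332% and 0.317%. BAX has a short canonical transcript of 795 bases, so its share per kilobase leans on that length.

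**Figure D4:**
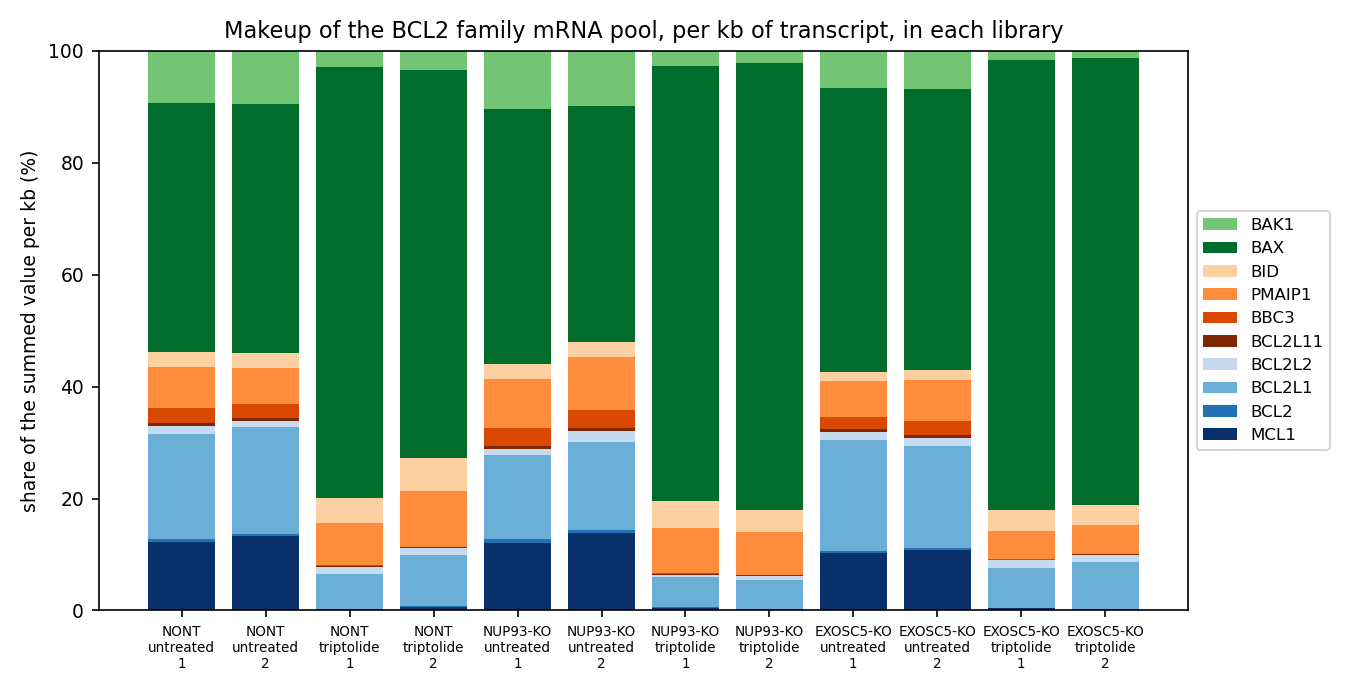
Share of each member, in percent, in the summed level per kilobase of the 10 genes, in each of the 12 libraries. As means of 2 replicates, the pro-survival share goes from between 30.5% and 33.4% without drug to between 6.26% and 9.53% after triptolide. The mean BAX share is 73.1% to 80.2% of the sum after the drug.

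Relative scales were used to ask which members fell more or less than other genes. With each library centred on its median level over tested genes, 6 members were lower and 3 higher in NONT (20.1% and 45.3% of tested genes), 7 lower and 3 higher in NUP93-KO (20.7% and 43.3%), and 6 lower and 2 higher in EXOSC5-KO (19.8% and 43.3%). On this scale the median gene had a log2 fold change of 0.55, 0.46 and 0.47 and not 0, so higher calls come easily. By median of ratios, a scaling added after the data were seen that puts the median gene at −0.01, −0.03 and −0.01, 6 members were lower and 1 higher in NONT (30.3% and 27.2% of tested genes), 7 lower and 2 higher in NUP93-KO (29.7% and 26.7%), and 7 lower and 2 higher in EXOSC5-KO (28.7% and 26.1%). Lower calls were thus more frequent among the 10 members than among tested genes, on both scales and in each genotype. That is a description with no test, since the members were chosen with earlier results of these data known.

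The genes called lower on both relative scales in every genotype were MCL1, BCL2, BCL2L1, BCL2L11, BBC3 and BAK1. The BCL2L11 call on the median-level scale was lost in NONT without either untreated or the second treated NONT replicate (limma adjusted p-values 0.0654 to 0.130), and in EXOSC5-KO without either untreated or the first treated EXOSC5-KO replicate (0.0649 to 0.160). By median of ratios the MCL1 log2 fold changes were −5.54, −5.27 and −5.20 (each ± 0.38, SE), those of BCL2L1 −1.77, −1.46 and −1.44 (± 0.11, SE) and those of BAK1 −1.99, −1.95 and −2.35 (± 0.14, SE). BID rose relative to the median gene, by 0.49, 0.80 and 0.94 (± 0.12, SE; limma adjusted p-values 0.00617, 0.000269 and 9.51e-05). BAX rose by 0.94 in NUP93-KO and 0.53 in EXOSC5-KO (± 0.12, SE; limma adjusted p-values 7.56e-05 and 0.00366), and was at 0.27 in NONT (0.0803). PMAIP1 has no direction that holds on relative scales: in NONT it was 0.41 ± 0.11 (SE) when centred on the median level and −0.11 ± 0.12 (SE) by median of ratios, and in NUP93-KO 0.37 and −0.11. It was called lower by median of ratios in EXOSC5-KO, at −0.57 ± 0.12 (SE). BCL2L2 passed as lower in NUP93-KO on both scales, at −0.72 ± 0.27 and −1.21 ± 0.27 (SE), and in NONT and EXOSC5-KO on neither. The first of these values was −0.38 without the second untreated and −0.35 without the first treated NUP93-KO replicate, neither of which passed (0.300 and 0.294), and its difference in response from NONT did not pass under any of the alternatives (limma adjusted p-values 0.466 to 0.996).

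To ask whether the knockouts alone set the family at another level, untreated cells were compared. In limma 0 members passed in either knockout, against 0.0217% of tested genes in NUP93-KO and 0.521% in EXOSC5-KO. At an unadjusted p-value under 0.05, 0 members differed in NUP93-KO and 3 were higher in EXOSC5-KO, as were 833 of 13811 tested genes. These were BAX at 3430.0 and 3225 against 1815 and 2507 in NONT (log2 0.64 ± 0.23, SE, adjusted p-value 0.372), BCL2L1 at 4329 and 3811 against 2471 and 3472 (0.47 ± 0.20, SE, 0.521) and PMAIP1 at 1034 and 1116 against 714 and 874 (0.44 ± 0.20, SE, 0.565). None of the 3 overlapped between the groups. The same held for BCL2L2 (464 and 403 against 247 and 292) and BBC3 (356 and 392 against 262 and 330.5), whose unadjusted limma p-values were above 0.05. With 2 replicates each this carries little weight, and the share of tested genes without overlap was not counted for this comparison. With libraries scaled to the same sum over genes or by median of ratios, BAX alone passed in EXOSC5-KO, at 0.61 and 0.54. For MCL1, ±2 SE of the difference from NONT spans −0.74 to 0.59 in NUP93-KO and −0.48 to 0.85 in EXOSC5-KO, so shifts within these bounds could not be seen with 2 replicates.

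The knockouts were compared with NONT in how much mRNA the drug removed. The median difference over all tested genes was a smaller loss in the knockouts, by 0.74 (NUP93-KO) and 0.57 (EXOSC5-KO) on the log2 scale, and both differences use the same NONT libraries. In NUP93-KO, BAX was the member that passed, with a difference in response of 1.42 ± 0.32 (SE, limma adjusted p-value 0.0497), against 0.76% of tested genes that lost less, and 7 members had an unadjusted p-value under 0.05, as did 5709 of 13811 tested genes in this direction. In EXOSC5-KO 0 members passed, against 0.319% of tested genes, and 4 did at an unadjusted p-value under 0.05 (BCL2L1, BBC3, BID and BAX; 3187 of 13811 tested genes). The BAX call hangs on the settings. Over 21 alternatives its adjusted p-value ran from 0.00356 to 0.845 and passed under 4 of them, and its difference was 0.65 with the same sum over genes, 0.67 by median of ratios and 0.76 with the same mitochondrial sum, passing under none of these.

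The number of members that passed moved with single libraries. Without the first untreated NONT replicate, 6 members lost less in NUP93-KO (BCL2L1, BBC3, PMAIP1, BID, BAX and BAK1) and 4 in EXOSC5-KO (BCL2L1, BBC3, BID and BAX), but so did 7040 and 5280 of 13811 tested genes. Without the first treated NONT replicate the counts were 4 and 1 (2480 and 405 tested genes), and without the second untreated or the second treated NONT replicate they were 0 and 0. Leaving out any single NUP93-KO or EXOSC5-KO library also gave 0 in each knockout. The BBC3 differences were 1.84 ± 0.57 (SE) in NUP93-KO and 1.57 ± 0.57 (SE) in EXOSC5-KO (limma adjusted p-values 0.0672 and 0.176), from treated values that rest on few reads, and with a pseudocount of 5 they were 0.84 and 0.59. MCL1 lost less by 0.99 ± 0.47 (SE) in NUP93-KO and 0.88 ± 0.47 (SE) in EXOSC5-KO (0.120 and 0.237). BCL2L2 was the member with a difference below 0, −0.08 ± 0.47 (SE) in NUP93-KO. Set against the shift of the median gene, 0.74, the NUP93-KO differences of PMAIP1 (0.74) and BAK1 (0.79) lay at it, and that of BAX lay above it, at 1.42 with a pseudocount of 1 or 5.

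The rest of the pathway was examined through 3 lists. Of 16 other BCL2 family genes 12 were tested (BCL2L10, BCL2L14, BCL2L15 and BNIPL were too low), and 11, 7 and 8 of them were lower in NONT, NUP93-KO and EXOSC5-KO, with medians of −1.62, −0.95 and −1.23, close to those of all tested genes. BMF, a BH3-only gene, was at 55.4 and 45.0 in untreated NONT and listed at 0 in 5 of the 6 treated libraries. BOK, an effector-like relative of BAX, went from 1892 and 2576 to 308 and 216 in NONT (log2 −3.09), and BAD, a BH3-only gene, lost less than the median gene, at −1.20. Of 14 genes of the apoptosome and the mitochondrial release step, 14, 10 and 13 were lower, with medians of −1.59, −1.20 and −1.15. CYCS, which encodes cytochrome c, was at −1.05, −0.11 and −0.39. Of 7 tested regulators of MCL1 and BH3-only protein turnover (TRIM17 was too low), 7, 6 and 7 were lower, with medians of −2.34, −1.45 and −1.72. FBXW7, a ubiquitin ligase subunit for MCL1, was at −3.76, −2.44 and −3.24, and USP9X, which removes ubiquitin from MCL1, at −2.38, −1.45 and −1.66. No tested gene of the 3 lists was called higher after the drug. With the genotypes in the same order, 90.0%, 55.1% and 64.3% of all tested genes were called lower. A high count alone therefore does not set a list apart.

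Genes that resembled 3 of the members over the 12 libraries were sought among 10380 genes with an untreated mean of at least 100, by the root-mean-square distance between centred log2 profiles. For MCL1 the nearest were BTG2 (0.264), SPATA2 (0.280) and TENT5B (0.340), where the median gene was at 2.71. For BCL2L1 they were MIOS (0.137), SLF2 (0.146) and CREB5 (0.168), with the median gene at 0.959. For BAX they were CNPY4 (0.134), H6PD (0.143) and ITGA7 (0.146), with the median gene at 0.533. The median gene thus lay farthest from MCL1 and nearest to BAX. The drug and the scale of each library are shared by all genes, so these distances describe a pattern and attach no p-value.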

How the data were processed

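Poly(A) RNA of 12 libraries was measured by strand-specific RNA-seq. Per the labels and the study's methods, the authors pseudoaligned reads with kallisto 0.46.1 to Ensembl GRCh38 transcripts plus ERCC sequences, summed them per gene with tximport, and divided by DESeq2 size factors estimated on 92 ERCC spike-ins that were added per cell. The deposited values are therefore a spike-in-scaled signal per gene and not counts. A miscounted well or a pipetting error would shift a whole library. Of the low values, 17.6% to 27.4% were whole multiples of the worth of 1 read (tolerance 0.02), so no count model was used and depths are approximate. Groups and replicate numbers came from the labels, which do not say whether replicates were separate cultures, so p-values measure the spread between these libraries.

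IDs were matched to GENCODE 44 (19584 of 22379, all 10 members). Genes with an untreated mean of at least 10 (13811) were fitted on log2(value + 1) with limma 3.58.1 in R 4.3.3 (6 group means, all 12 libraries, mean-variance trend, two-sided, Benjamini-Hochberg over all tested genes, threshold 0.05), which understates changes of low genes. A second fit centred each library on its median level. Class medians, ratios, shares and lists carry no test. Intervals cover counting error only. The fit was tested on simulated data, in which few genes changed and library scale did not vary. That setting differs from these data, where most genes fell after triptolide and the NONT libraries differed in scale. Samples were not treated as paired by replicate number in the main fit. Named genes were the 10 members, genes of the 3 pathway lists needed for a count, NUP93, EXOSC5 and the 3 genes nearest to MCL1, BCL2L1 and BAX. BMF, BOK, BAD, CYCS, FBXW7 and USP9X were picked from the lists after their values were seen. Members and lists were chosen with earlier results of these data known. Alternatives were pseudocounts of 0.5 and 5, filters, scalings, no trend, a replicate block and leaving out each library. Amino acid sequences were not used here. Tables came from pandas 2.3.3 with NumPy 2.4.6 under Python 3.11.15, intervals from SciPy 1.17.1 and figures from matplotlib 3.10.9.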

Additional observations from a re-analysis of the deposited data

Results flagged for a closer look

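BAX is listed because its response to triptolide differed between NUP93-KO and NONT in a test of the difference itself. The difference was 1.42 on the log2 scale (limma adjusted p-value 0.0497, range 0.00356 to 0.845 over 21 alternatives). Treated NUP93-KO libraries kept 1903 and 2142, above both treated NONT libraries (1060.2 and 631), and the median of all tested genes differed in the same direction by 0.74. The untreated NONT libraries differ in scale (replicate 1 minus replicate 2 has a median of −0.51 on the log2 scale), and without the second of them the BAX difference was 1.19, with an adjusted p-value of 0.161. Its cause was not tested.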

How the results depend on the processing

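Leaving out single libraries, the number of members that lost less ran from 0 to 6 in NUP93-KO and from 0 to 4 in EXOSC5-KO, and the class difference from −1.28 to −0.79 in NONT, −1.21 to −0.88 in NUP93-KO and −0.74 to −0.45 in EXOSC5-KO. The NUP93-KO count of 1 became 2 with an untreated mean of at least 50 (BAX and BCL2L1), and 0 with a pseudocount of 0.5, no filter, the same sum, median of ratios, the same mitochondrial sum or no trend. Members lower in NONT numbered 6 by median of ratios. In untreated EXOSC5-KO 1 member (BAX) was higher with the same sum or median of ratios. Relative to the median level, members higher in NONT were 0 with the same sum and 1 by median of ratios, and in EXOSC5-KO 1 with the same sum. On the same-sum scale and by median of ratios the response turned for BID in NONT (0.17 and 0.49), NUP93-KO (0.46 and 0.80) and EXOSC5-KO (0.65 and 0.94) and for BAX in EXOSC5-KO (0.24 and 0.53); for BAX in NONT it was 0.27 by median of ratios. Against the median level, PMAIP1 turned in NONT (−0.42 and −0.11) and NUP93-KO (−0.45 and −0.11), and BAX in NONT with the same sum (−0.044). The cause was not tested.

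With the replicate number as a block, 0 members differed in response in NUP93-KO (BAX adjusted p-value 0.0664) and 8 were lower in EXOSC5-KO (BAX 0.0519), and no other count of members changed. Correlations of deviations between same-numbered libraries of different groups were −0.05 to 0.04, so these libraries shared little gene-wise deviation. This cannot tell whether they were handled together, which the labels do not say. Among all tested genes, the count that lost less in NUP93-KO went from 105 to 1051 with an untreated mean of at least 50 and to 0 without trend, and was 7040 without the first and 0 without the second untreated NONT replicate. By median of ratios, the counts lower after triptolide went from 12427 to 4185 in NONT, 7603 to 4100 in NUP93-KO and 8884 to 3963 in EXOSC5-KO. Without drug, NUP93-KO had 2 genes higher and 1 lower (67 and 59 by median of ratios), and EXOSC5-KO had 67 higher and 5 lower (284 and 503).

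Of the single-gene values, 1984 kept their side of the threshold under an alternative, 52 lost and 20 gained the call, and 14 turned with a call before or after. Depth limits BBC3, BCL2L11 and BCL2 after triptolide most.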
